A study of Mus musculus with 6 samples.

Results

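The cortical layer transcription factors examined here were 9 genes chosen by symbol and split by the layers they are known for. Cux1, Cux2 and Rorb formed the 3 upper-layer factors, and Tbr1, Bcl11b, Fezf2, Foxp2, Sox5 and Tle4 formed the 6 deep-layer factors. They were 9 of the 55357 genes in the count data. All 9 were among the 21876 genes that reached 6 reads in at least 1 library and were tested.

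The data were 6 polyA RNA-seq libraries of mouse primary cultures of cortical and hippocampal neurons, prepared from wild type C57BL/6N embryos at E18. The 3 libraries of the shCtrl group came from cultures that received lentivirus carrying a scrambled shRNA. The 3 libraries of the shPla2g4e group came from cultures that received lentivirus carrying sh2, a single shRNA against Pla2g4e. Pla2g4e is a calcium-dependent N-acyltransferase of the cytosolic phospholipase A2 family. Cultures were transduced at day in vitro 4 (DIV4) and collected at DIV14, and the comparison asks how silencing of Pla2g4e changes the transcriptome of developing neurons. Both groups share the genotype, the culture and a lentivirus, and all differences rest on 1 shRNA sequence. Nothing in the labels says whether the 3 libraries of a group came from separate preparations, so the p-values measure the spread between these libraries, which may be technical.

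Projection neurons of the neocortex are born in an inside-out order, and each layer keeps a set of transcription factors that are first used to set its identity. Deep-layer factors specify neurons that project to the thalamus, brainstem and spinal cord, and several of them repress one another. Upper-layer factors mark neurons that connect cortical areas or receive thalamic input, and Cux1 and Cux2 are also known for shaping dendrites, spines and synapses. Many of these genes are not restricted to the cortical layers: Bcl11b is also used by hippocampal and striatal neurons and Foxp2 by striatal neurons. The libraries are of mixed cultures, so that fewer cells of a type and less RNA per cell cannot be told apart in any of the values given here.

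The sequences that bear on these genes are those of the shRNA and of the places in the layer factors where its seed could pair. The target of sh2 in the Pla2g4e mRNA and the guide strand are given with the 7-base seed site, and the seed (bases 2 to 8 of the guide) that pairs with it, in capitals. They are followed by every match of the seed site GTGGCCA that lies in the 3′ UTR of a layer factor, taken from its longest coding transcript, with 11 bases on each side and the site in capitals, in GENCODE vM21 on GRCm38. Only the sense strand of the transcript was searched.
sh2 target: ggaagatggtgGTGGCCAa
sh2 guide: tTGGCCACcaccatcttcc
Cux1 first site: tctggactcttGTGGCCAacagagtcccc
Cux1 second site: agtccccgcctGTGGCCAtgccatagacc
Cux2 first site: atgatgtacatGTGGCCAtctctgtggcc
Cux2 second site: tggccatctctGTGGCCAttccagtgctt
Cux2 last site: tgcttatagctGTGGCCAtaagccttggc
Sox5 site: catccttcccaGTGGCCAagcacattaac

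The sites in Cux1 were at chr5:136270868-136270874 and chr5:136270846-136270852, both on the minus strand. In Cux2 they were at chr5:121859103-121859109, chr5:121859091-121859097 and chr5:121857333-121857339, also on the minus strand. The Sox5 site was at chr6:143833193-143833199 on the minus strand. Of the 3′ UTRs of the 15691 tested genes that had one, 2106 (13.4%) held at least 1 match. That share depends on length. Among genes with a 3′ UTR within 20% of the length of that of Cux1 (8376 bases), 48.1% held a match, against 30.8% for Cux2 (4229 bases), 34.1% for Sox5 (4839 bases) and 3.6% for Fezf2 (402 bases). Rorb, Tbr1, Bcl11b, Fezf2, Foxp2 and Tle4 held none in this 3′ UTR, although 41.6% of genes with a 3′ UTR as long as that of Rorb did. In coding sequences of the longest transcripts, Cux1, Cux2 and Foxp2 held 2 matches each and Bcl11b held 1. A match is only a run of letters, and no pairing with sh2 was measured.

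The libraries held 17054717 to 23570180 reads on genes. Pla2g4e (chr2:119996893-120075816, minus strand, GRCm39) had 38.0, 35.1 and 35.4 CPM (counts scaled to library size with the TMM method) in shCtrl replicates 1 to 3, against 21.8, 14.1 and 18.7 CPM in shPla2g4e replicates 1 to 3. The groups did not overlap, and the level fell by 0.99 on the log2 scale (SE 0.13, edgeR quasi-likelihood test with Benjamini-Hochberg adjustment, adjusted p = 1.24e-04). Markers of neurons were abundant: the 10 pan-neuronal markers summed to 5610 to 6079 CPM in shCtrl and 4995 to 5449 CPM in shPla2g4e. The 10 astrocyte markers summed to 2978 to 3805 CPM and 2051 to 3244 CPM, so the cultures held glia. The 6 tested of the 7 microglia markers summed to at most 9.50 CPM in any library. The 6 vascular markers summed to 18.2 to 31.4 CPM over all libraries, with Cldn5, a defining marker of endothelium, at 0 reads in each and Pecam1 and Flt1 detected in each.

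Among the upper-layer factors, Cux1 fell and Rorb rose in the shPla2g4e libraries, and Cux2 was lower without passing the test. Of the 6 deep-layer factors, 0 passed it in edgeR without a block, limma or DESeq2. Before adjustment, 2 (Sox5 and Bcl11b) had an edgeR p under 0.05, and such p-values were not counted over all genes. With the replicate number as a block, Sox5 (edgeR adjusted p = 0.00266) and Cux2 (edgeR adjusted p = 0.00257) also passed. A gene passed at an adjusted p under 0.01 over all genes tested. Without the block 6.49% of them passed, 4% lower and 2.48% higher, and with it 15.5% passed. Of the 9 factors, 1 passed lower and 1 higher without the block, and 3 lower and 1 higher with it. Lower genes made up 61.7% of all calls with TMM and 43.3% with library size alone, a scaling that also raised the median change over all tested genes from 0.03 to 0.10 on the log2 scale. The median log2 fold change was -0.28 over the 3 upper-layer factors and -0.16 over the 6 deep-layer factors, against 0.03 over all genes tested. The deep-layer median was -0.09 without shCtrl replicate 2 or with library size alone, -0.25 without shPla2g4e replicate 2 and -0.08 without shPla2g4e replicate 3, while the upper-layer median stayed between -0.30 and -0.20 in the 16 alternatives tried.

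**Figure D1:**
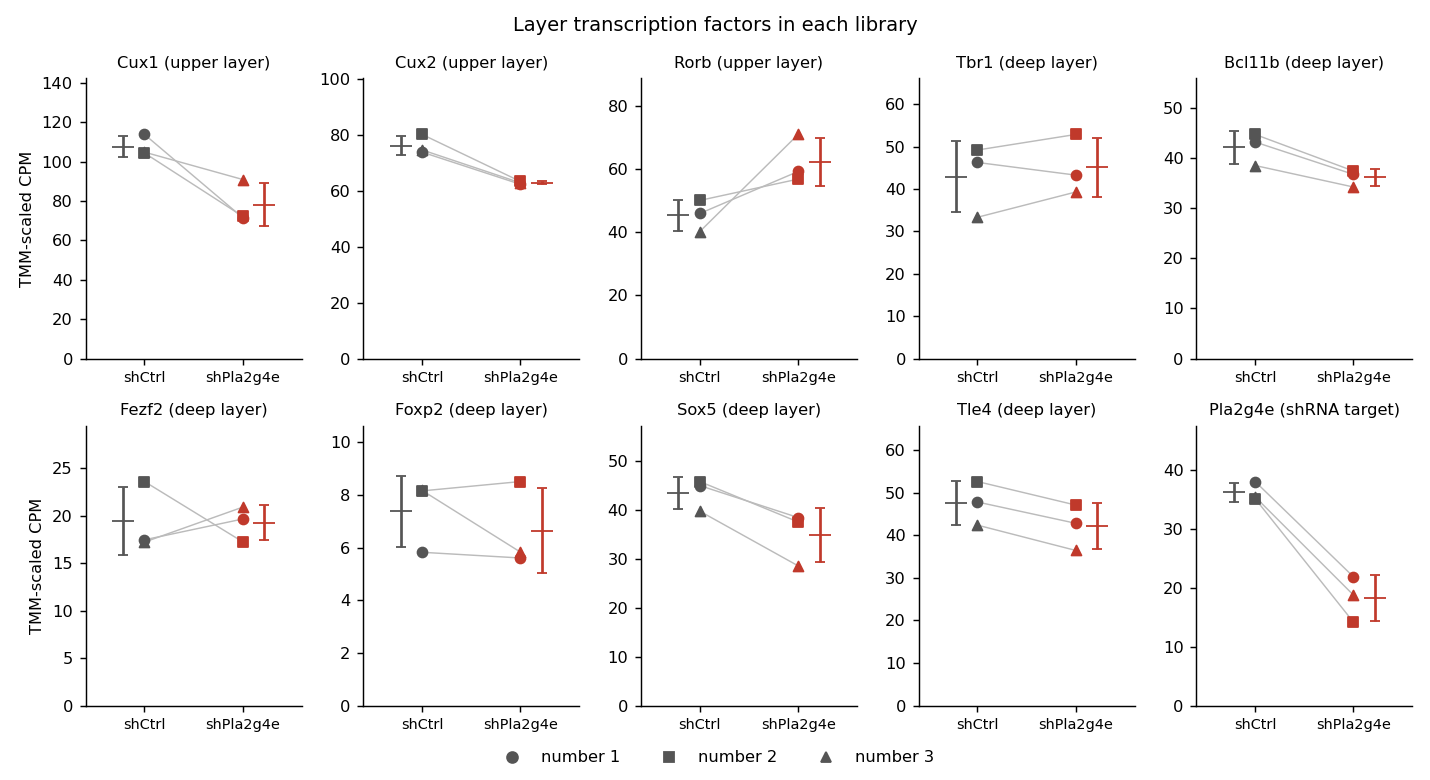
TMM-scaled CPM (vertical axis, from 0) of each layer factor and of Pla2g4e in the 3 shCtrl libraries (grey) and the 3 shPla2g4e libraries (red); marker shapes and grey lines join libraries with the same number, and the offset bars give the mean ± SD (n = 3). All 3 shPla2g4e libraries lie below all 3 shCtrl libraries for Cux1, Cux2, Bcl11b, Sox5 and Pla2g4e, above them for Rorb, and the groups overlap for Tbr1, Fezf2, Foxp2 and Tle4.

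Cux1 encodes a homeodomain protein of the cut family that is used by upper-layer neurons (ENSMUSG00000029705, chr5:136276989-136596344, minus strand, GRCm39). It had 114, 104 and 105 CPM in shCtrl replicates 1 to 3, against 71.5, 72.2 and 91.0 CPM in shPla2g4e replicates 1 to 3. The groups did not overlap, and shPla2g4e replicate 3 stood nearer to the controls than the others. The mean was 108 ± 5.32 CPM (SD, n = 3) in shCtrl and 78.2 ± 11.02 CPM in shPla2g4e, 27.4% lower. The log2 fold change was -0.46 (SE 0.10, 95% confidence interval -0.67 to -0.26, edgeR adjusted p = 0.00425). With library size alone in place of TMM, the log2 fold change of -0.39 had an edgeR adjusted p of 0.0115. Of the 6 fits that each left out 1 library, 2 kept the call, those without shCtrl replicate 3 and without shPla2g4e replicate 3. The Cux1 gene also yields the CASP transcript, which encodes a Golgi protein without the homeodomain, and counts per gene do not separate them. Of its exon bases, 1.97% overlap an antisense gene.

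Cux2, the close relative of Cux1, is the more layer-restricted of the pair (ENSMUSG00000042589, chr5:121994429-122188165, minus strand). It had 73.8, 80.2 and 74.6 CPM in shCtrl replicates 1 to 3, against 62.3, 63.3 and 62.8 CPM in shPla2g4e replicates 1 to 3. The shPla2g4e libraries were close to one another and all below the controls. The mean moved from 76.2 ± 3.45 to 62.8 ± 0.509 CPM (SD, n = 3), a log2 fold change of -0.28 (SE 0.08, 95% confidence interval -0.44 to -0.11) that did not pass the test (edgeR adjusted p = 0.0269). With the replicate number as a block, it passed at the same size of -0.28 (SE 0.07, edgeR adjusted p = 0.00257).

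Rorb encodes an orphan nuclear receptor that marks the neurons of layer IV, the main target of thalamic input (ENSMUSG00000036192, chr19:18907969-19088560, minus strand). It had 45.9, 50.02 and 40.2 CPM in shCtrl replicates 1 to 3, against 59.2, 56.8 and 70.9 CPM in shPla2g4e replicates 1 to 3. All 3 shPla2g4e libraries were above all 3 controls. The mean rose from 45.4 ± 4.94 to 62.3 ± 7.56 CPM (SD, n = 3), 37.3% higher, with a log2 fold change of 0.46 (SE 0.10, 95% confidence interval 0.24 to 0.68, edgeR adjusted p = 0.00793). The call was close to the threshold: of the 6 fits that left out 1 library, 1 kept it, the fit without shPla2g4e replicate 2, and the edgeR adjusted p reached 0.0377 in the fit without shCtrl replicate 3. With the replicate block the log2 fold change of 0.45 had an edgeR adjusted p of 1.88e-05.

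The upper-layer factors therefore did not move together. On the scale of TPM, which divides counts by exon length and then by their sum, the ratio of Rorb to Cux1 within a library does not depend on the scaling between libraries. It was 0.729, 0.866 and 0.693 in the shCtrl libraries and 1.496, 1.42 and 1.41 in the shPla2g4e libraries. Rorb was the lower of the pair in each control and the higher in each shPla2g4e library. That crossing rests on the exon lengths, 20024 bases for Cux1 and 11076 for Rorb. In CPM, Rorb stayed below Cux1 in shPla2g4e replicates 1 to 3 (59.2, 56.8 and 70.9 against 71.5, 72.2 and 91.0 CPM). This pair was picked after the values had been seen, so its ratio is a description and carries no test. The summed TPM of the upper-layer factors as a share of all 9 factors was 35.4 ± 1.99% (SD, n = 3) in shCtrl and 35.1 ± 3.39% in shPla2g4e.

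The deep-layer factors of corticothalamic and subplate neurons were Tbr1, Tle4, Foxp2 and Sox5. Tbr1, a T-box factor of early-born layer VI neurons (ENSMUSG00000035033, chr2:61633274-61644458, plus strand), had 46.3, 49.2 and 33.3 CPM in shCtrl replicates 1 to 3, against 43.3, 52.9 and 39.3 CPM in shPla2g4e replicates 1 to 3. The groups overlapped, and in each group the library numbered 2 was the highest and the library numbered 3 the lowest. The log2 fold change was 0.08 (SE 0.13, 95% confidence interval -0.21 to 0.36, edgeR adjusted p = 0.792).

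Tle4 encodes a Groucho-family corepressor that binds DNA through partner factors and is used by layer VI neurons (ENSMUSG00000024642, chr19:14425514-14575415, minus strand). It had 47.8, 52.6 and 42.4 CPM in shCtrl replicates 1 to 3, against 42.8, 47.1 and 36.5 CPM in shPla2g4e replicates 1 to 3. It was lower in each of the 3 pairs of libraries with the same number, yet the groups overlapped. The log2 fold change of -0.17 (SE 0.11, 95% confidence interval -0.40 to 0.05) did not pass (edgeR adjusted p = 0.340), nor with the replicate block (edgeR adjusted p = 0.116).

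Foxp2, a forkhead repressor of layer VI neurons, was the member with the fewest reads, 102 to 184 per library (ENSMUSG00000029563, chr6:14901348-15441976, plus strand). It had 5.82, 8.15 and 8.17 CPM in shCtrl replicates 1 to 3, against 5.60, 8.51 and 5.83 CPM in shPla2g4e replicates 1 to 3. The groups overlapped over nearly their whole range. Its interval was the widest among the 9, from -0.58 to 0.27 around a log2 fold change of -0.15 (SE 0.20, edgeR adjusted p = 0.707), so a change of a size seen for Cux1 could not be detected for Foxp2.

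Sox5, a SoxD factor that times the generation of corticofugal neurons, had 44.97, 45.8 and 39.7 CPM in shCtrl replicates 1 to 3, against 38.4, 37.5 and 28.6 CPM in shPla2g4e replicates 1 to 3 (ENSMUSG00000041540, chr6:143774151-144727703, minus strand). The groups came close without overlapping, and the library numbered 3 was the lowest in each group. The mean was 43.5 ± 3.29 CPM in shCtrl and 34.9 ± 5.46 CPM in shPla2g4e (SD, n = 3). The log2 fold change of -0.32 (SE 0.11, 95% confidence interval -0.55 to -0.08) did not pass the test (edgeR adjusted p = 0.0785). It passed with the replicate block, at -0.33 (SE 0.09, edgeR adjusted p = 0.00266). Of the exon bases of Sox5, 9.25% overlap an antisense gene, Sox5os1, and the counting used no strand, so reads there cannot be told apart.

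The factors of subcerebral projection neurons, which send axons to the brainstem and spinal cord, were Fezf2 and Bcl11b. Fezf2 is a zinc finger factor that selects this fate and acts upstream of Bcl11b (ENSMUSG00000021743, chr14:10121574-10127669, plus strand). It had 17.5, 23.6 and 17.2 CPM in shCtrl replicates 1 to 3, against 19.7, 17.2 and 20.9 CPM in shPla2g4e replicates 1 to 3. The ranges overlapped, the log2 fold change was -0.01 (SE 0.14, 95% confidence interval -0.30 to 0.28, edgeR adjusted p = 0.972), and its sign changed with the scaling.

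Bcl11b, also called Ctip2, is a zinc finger factor needed for the outgrowth of corticospinal axons (ENSMUSG00000048251, chr12:107876662-107969861, minus strand). It had 43.1, 44.6 and 38.5 CPM in shCtrl replicates 1 to 3, against 36.7, 37.4 and 34.2 CPM in shPla2g4e replicates 1 to 3. The groups lay side by side without overlap. The mean moved from 42.1 ± 3.23 to 36.1 ± 1.68 CPM (SD, n = 3), with a log2 fold change of -0.22 (SE 0.09, 95% confidence interval -0.42 to -0.03, edgeR adjusted p = 0.139). With the replicate block the edgeR adjusted p was 0.0523, so it passed in neither fit.

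The groups did not overlap for 5 of the 9 factors, all 3 upper-layer ones and Bcl11b and Sox5 among the deep-layer ones. Over all genes tested, 30% had groups that did not overlap. With the replicate block, 4 of the 9 factors passed, 3 lower (Cux1, Cux2 and Sox5) and 1 higher (Rorb). In the same fit 15.5% of all genes tested passed, and 9.02% passed lower. With the block the standard errors of all 9 factors were smaller, and the fold changes stayed close to those without it.

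**Figure D2:**
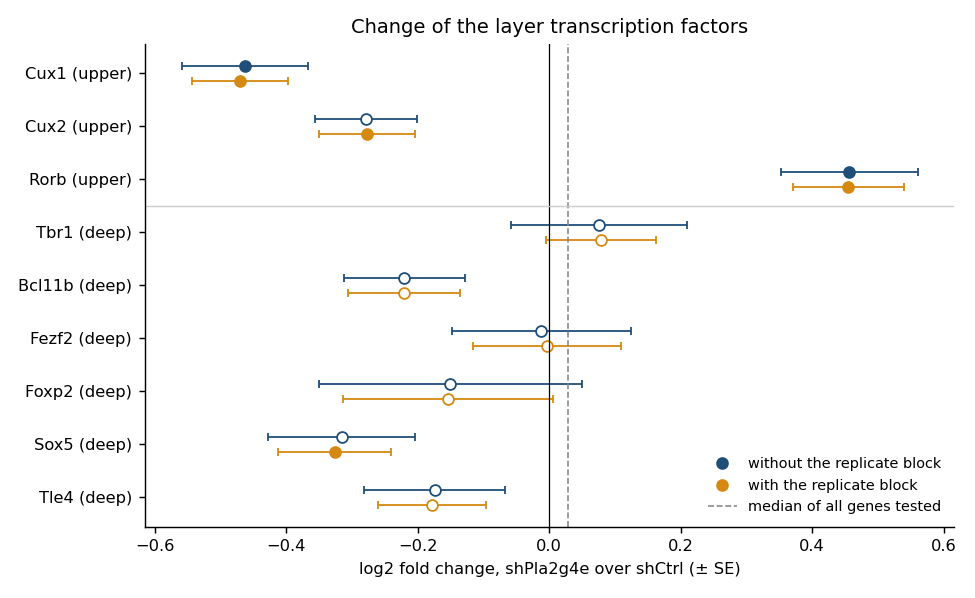
Log2 fold change of shPla2g4e over shCtrl (horizontal axis, bars ± SE) of the 9 layer factors, without the replicate number as a block (blue) and with it (orange); filled points passed an adjusted p under 0.01 and the dashed line marks the median of all genes tested, 0.03. Cux1 at -0.46 and Rorb at 0.46 passed in both fits, and Cux2 and Sox5 passed with the block.

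With all 6 libraries, the 3 factors whose 3′ UTR holds a match of the sh2 seed site had the 3 most negative log2 fold changes. These were Cux1 with 2 matches at -0.46, Sox5 with 1 at -0.32 and Cux2 with 3 at -0.28. The 6 factors without a match there ranged from -0.22 for Bcl11b to 0.46 for Rorb. Without shPla2g4e replicate 2, Foxp2, which has no match there, was at -0.370, below Cux2 at -0.284. Without shCtrl replicate 1, Foxp2 at -0.295 was just below Sox5 at -0.291. Over the whole data, of the 2106 tested genes with a match in this 3′ UTR, 17.5% passed lower, against 3.58% of the 13585 without one. The median log2 fold change was 0.02 in genes without a match, -0.13 with 1, -0.25 with 2 (249 genes) and -0.38 with 3 or more (54 genes). These groups were not matched for 3′ UTR length, on which the share with a match depends. Among these genes, 487 without a match and 368 with at least 1 passed lower. The part of these matches in the lower levels of Cux1, Cux2 and Sox5 was not tested, and a single shRNA sequence was used, so that an effect of its seed and an effect of less Pla2g4e cannot be told apart.

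Levels between genes were compared as TPM. In shCtrl the order of the means was Tle4 (34.2 ± 3.87 TPM, SD, n = 3), Tbr1 (32.0 ± 6.38), Cux2 (30.9 ± 1.69), Fezf2 (26.1 ± 5.10), Cux1 (22.0 ± 0.901), Bcl11b (21.2 ± 1.70), Rorb (16.8 ± 1.91), Sox5 (12.4 ± 0.964) and Foxp2 (1.85 ± 0.352). The libraries of the first 4 overlapped from neighbour to neighbour, as did those of Cux1 and Bcl11b, while Bcl11b, Rorb, Sox5 and Foxp2 were apart from one another. In shPla2g4e the order was Tbr1 (34.5 ± 5.89 TPM), Tle4 (30.9 ± 4.4), Fezf2 (26.4 ± 2.16), Cux2 (26.1 ± 0.569), Rorb (23.5 ± 2.53), Bcl11b (18.6 ± 1.13), Cux1 (16.3 ± 2.10), Sox5 (10.2 ± 1.69) and Foxp2 (1.70 ± 0.442). Rorb moved up by 2 places, past Cux1 and Bcl11b, and Cux1 moved down by 2. In this group the first 5 overlapped from neighbour to neighbour, as did Bcl11b and Cux1.

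**Figure D3:**
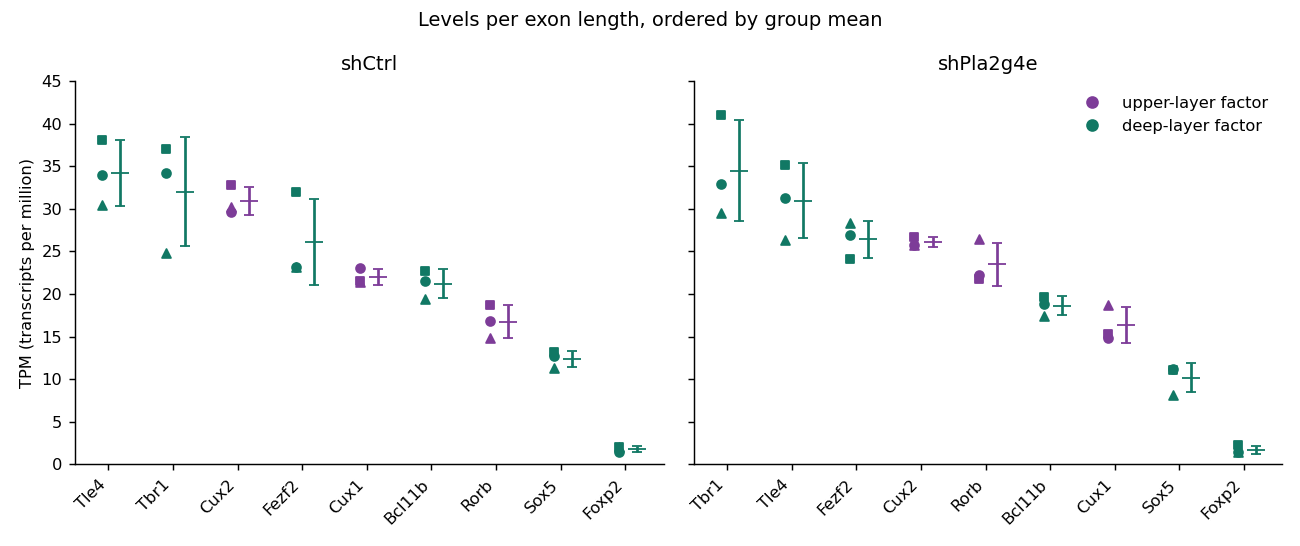
TPM (vertical axis, from 0) of the layer factors in the shCtrl libraries (left) and the shPla2g4e libraries (right), ordered by the mean of each group; markers are single libraries with shapes by library number, bars give the mean ± SD (n = 3), and colours separate upper-layer (purple) from deep-layer factors (green). Rorb rises from 16.8 to 23.5 TPM and Cux1 falls from 22.0 to 16.3 TPM, while Foxp2 reaches at most 2.21 TPM in a library.

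Among genes of the same families as the 9 factors, a pair of Groucho corepressors fell. Of 16 family relatives, 15 were tested (Fezf1 had at most 2 reads in a library). Of these, 2 passed, both lower, against 4% of all genes tested that passed lower. A negative log2 fold change was found for 13 of the 15, against 10162 of the 21876 genes tested, and most of those 13 did not pass. With the replicate block 4 relatives passed lower and 1 higher, Tle6, which is named after its value was seen (log2 fold change 1.58, edgeR adjusted p = 0.00479 with the block). In that fit 15.5% of all genes tested passed, 9.02% lower. Tle1, a Groucho corepressor like Tle4, fell from 43.7 ± 1.13 to 27.0 ± 0.396 CPM (SD, n = 3), a log2 fold change of -0.70 (SE 0.09, edgeR adjusted p = 7.14e-05). Tle3, of the same family, fell from 195 ± 18.3 to 151 ± 2.05 CPM, by 0.37 on the log2 scale (SE 0.08, edgeR adjusted p = 0.00704). The call of Tle1 held in all 16 alternatives and that of Tle3 in 9. It was lost with upper-quartile scaling, with library size alone and in 5 of the 6 fits without 1 library, all but the fit without shCtrl replicate 3. Eomes, the T-box factor of intermediate progenitors and the relative of Tbr1, had 0.932 ± 0.209 CPM in shCtrl and 0.422 ± 0.198 CPM in shPla2g4e (log2 fold change -1.15, SE 0.52, edgeR adjusted p = 0.175). The median over the relatives was -0.37.

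Other regulators of the layers were read in the same way. Of 9 other upper-layer regulators, 1 passed: Lmo4, a LIM-only cofactor of cortical projection neurons, fell from 274 ± 10.6 to 183 ± 16.7 CPM (SD, n = 3), by 0.58 on the log2 scale (SE 0.08, edgeR adjusted p = 2.62e-04). Of the 9, DESeq2 called 2 and the replicate block 4, of which 3 were lower and 1 higher. The 13 other deep-layer regulators include 2 of the relatives, Bcl11a and Foxp1. Of the 13, 0 passed in edgeR without the block and in limma, and 2 passed in DESeq2. Before adjustment, 4 had an edgeR p under 0.05, and such p-values were not counted over all genes. With the replicate block 4 of the 13 passed, against 15.5% of all genes tested. The medians were -0.25 for the upper-layer and -0.16 for the deep-layer regulators.

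Genes that mark the layers without regulating them moved in both directions in each layer. Of 12 upper-layer markers, 3 passed lower and 2 higher, against 4% and 2.48% of all genes tested. Rasgrf2, an exchange factor for small GTPases, fell from 148 ± 19.4 to 81.4 ± 6.70 CPM (SD, n = 3; log2 fold change -0.87), and Unc5d, a netrin receptor, from 83.4 ± 8.86 to 46.4 ± 2.99 CPM (log2 fold change -0.84). Inhba, which encodes a subunit of activin and is induced by neuronal activity, rose from 52.6 ± 17.5 to 119 ± 54.4 CPM (log2 fold change 1.18, edgeR adjusted p = 0.00956). Its groups overlapped, but it was higher in each of the 3 pairs of libraries with the same number and passed with the replicate block (edgeR adjusted p = 1.70e-18). Its call held in 7 of 16 alternatives and was lost in limma and DESeq2 among others. Matn2, a matrix protein, rose from 9.63 ± 0.490 to 16.0 ± 1.61 CPM (log2 fold change 0.73). The other marker that passed, Plxnd1, a semaphorin receptor, is named outside the rule for named genes and after its value was seen (log2 fold change -0.68).

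Of 16 deep-layer markers, 3 passed lower and 2 higher, against 4% and 2.48% of all genes tested. Ccn2, a secreted matrix protein of the deepest cortical neurons, fell from 48.4 ± 4.39 to 25.1 ± 4.62 CPM (SD, n = 3; log2 fold change -0.95), and 23.2% of its exon bases overlap an antisense gene. Nxph3, a ligand of neurexins, fell from 25.3 ± 1.78 to 16.96 ± 2.63 CPM (log2 fold change -0.58). Cdh13, a cadherin, rose from 264 ± 49.6 to 393 ± 72.7 CPM (log2 fold change 0.57), a call that held in 7 of 16 alternatives and was lost in DESeq2 and the robust fit among others. Parm1, a membrane protein, rose from 37.6 ± 4.19 to 51.8 ± 2.61 CPM (log2 fold change 0.46). Crym, a thyroid hormone binding protein, also passed (log2 fold change -0.39) and is named after its value was seen. Of these 5 calls, that of Ccn2 held in all 16 alternatives, and it was the 1 call among deep-layer markers in each fit without shCtrl replicate 2, shCtrl replicate 3, shPla2g4e replicate 1 or shPla2g4e replicate 2. The medians were -0.23 over the upper-layer and 0.08 over the deep-layer markers, and each layer had markers on both sides of 0.

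**Figure D4:**
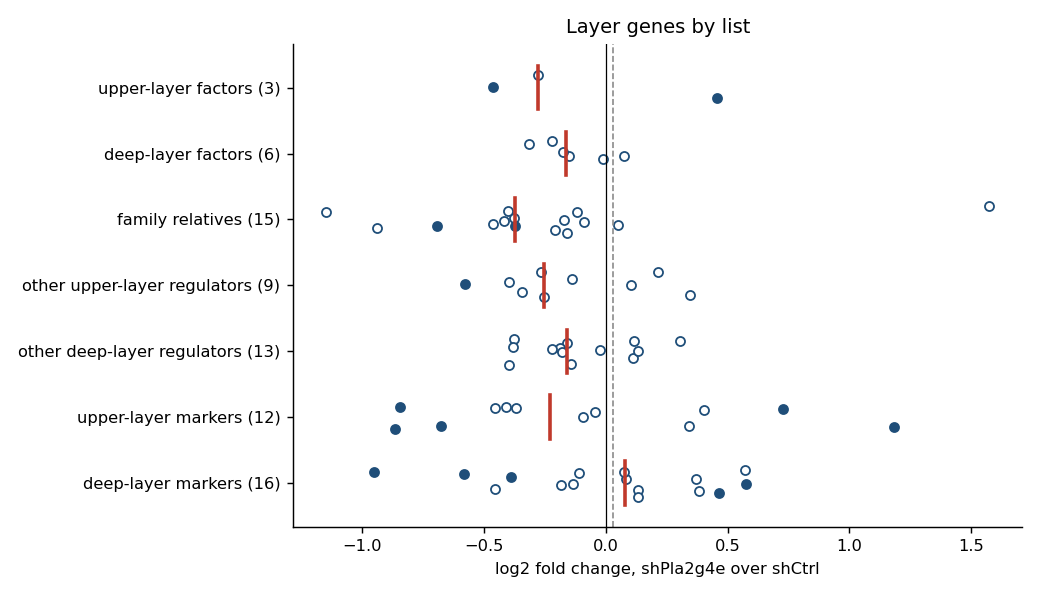
Log2 fold change of shPla2g4e over shCtrl (horizontal axis) of single genes in each list, with the number of genes tested in parentheses; filled points passed an adjusted p under 0.01, red bars are list medians, the dashed line is the median of all genes tested (0.03), and points are spread vertically for legibility. Among the lists of factors and regulators, 5 genes passed, Cux1, Tle1, Tle3 and Lmo4 lower and Rorb higher, while the markers of each layer have 3 that fell and 2 that rose.

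Markers of cell classes were read beside the layer factors, and most lists held members on both sides of 0. The 8 glutamatergic markers summed to 2164 to 2358 CPM in shCtrl and 1621 to 1931 CPM in shPla2g4e, and the 12 GABAergic markers to 1220 to 1325 and 1030 to 1178 CPM. Slc17a7, the main vesicular glutamate transporter of cortex, went from 745 to 300 CPM in the group means (log2 fold change -1.31), a fall as large as that of the summed level, and Slc17a6 had a log2 fold change of 0.91. Lhx6 had -0.93 and Npy 1.26 among GABAergic markers, and Tubb3 had -1.68 and Nefl 0.48 among pan-neuronal markers. Of the exon bases of Nefl, 32.8% overlap a gene on the other strand, Nefm, and the counting used no strand. The block gave 3 glutamatergic markers lower and 3 higher, 4 GABAergic lower and 3 higher, and 4 pan-neuronal lower and 2 higher. In that fit 15.5% of all genes tested passed, 9.02% lower, against 6.49% without the block. The 10 hippocampal markers summed to 993 to 1212 CPM and 987 to 1105 CPM, which overlapped. Wfs1 (0.85) and Man1a (0.57) passed higher, and with the replicate block 3 hippocampal markers also passed lower, Fibcd1 (-0.54), Mpped1 (-0.27) and Spock1 (-0.25), named after their values were seen. The 12 striatal markers summed to 330 to 356 CPM and 317 to 359 CPM. Of the remaining lists, 3 of 10 astrocyte markers fell, with Aqp4 (-1.19) and Gja1 (-0.66) among them, and Top2a (-1.0) passed among 8 progenitor markers. With the replicate block Mki67 (-1.13) also passed lower among the progenitor markers, named after its value was seen. With the block 7 astrocyte markers passed lower and 1 higher, S100b (1.11), named after its value was seen. Of 8 oligodendrocyte-lineage, 6 tested microglia and 5 tested vascular markers, 0 passed in edgeR without the block, limma or DESeq2. Before adjustment, 1, 3 and 1 of them had an edgeR p under 0.05, and such p-values were not counted over all genes. With the block Olig2 (-0.38) passed lower and Col1a1 (1.17) higher, both named after their values were seen. The part of these cell classes in the levels of the layer factors was not tested.

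The genes whose pattern over the 6 libraries was nearest to that of a layer factor were found by the distance between log2 CPM values centred on each gene's mean. For Cux1, the upper-layer factor with the smallest p, these were Tubg1 (distance 0.114), Agfg2 (0.131) and Ccm2 (0.135), against a median distance of 0.677 over 10907 genes whose log2 CPM averaged 3 or more. For Sox5, the deep-layer factor with the smallest p, they were Mex3d (0.0896), Nfasc (0.0924) and Trpt1 (0.124), against a median of 0.610. All 6 had negative log2 fold changes, from -0.26 for Nfasc to -0.47 for Ccm2, as a gene near Cux1 or Sox5 on this measure must.

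**Figure D5:**
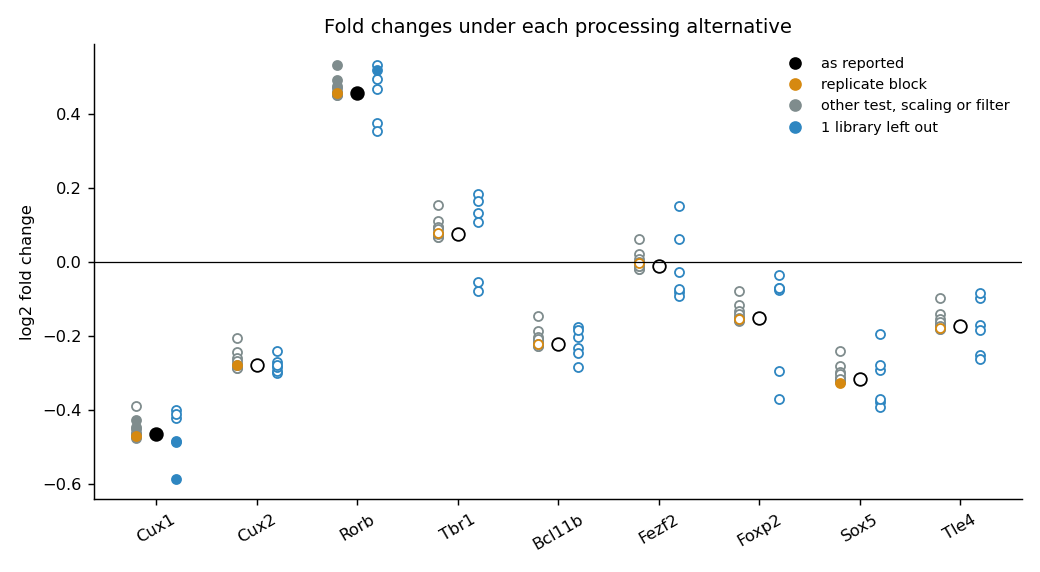
Log2 fold change (vertical axis) of each layer factor as reported (black) and under 16 alternatives: the replicate block (orange), other tests, scalings and filters (grey) and fits without 1 library (blue); filled points passed an adjusted p under 0.01. Cux1 stays between -0.58 and -0.39 and Rorb between 0.35 and 0.53, each passing in 11 of the 16, while the values of Tbr1 and Fezf2 lie on both sides of 0.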

How the data were processed

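The authors prepared libraries with a stranded mRNA kit, checked reads with FastQC 0.11.8, aligned them with STAR 2.7.0d and counted reads on exons per gene with featureCounts 1.6.0. They deposited raw counts for 1 library per file, without normalization. Per the file headers the annotation was GENCODE vM28 (GRCm39), although the methods name an older build, and no strand or read-pair option was set. Symbols, 3′ UTRs and seed matches came from GENCODE vM21 (GRCm38) through gene identifiers, which matched 52081 of 55357 genes. Tle5 and Lratd2 were found under older symbols through RefSeq synonyms. The shRNA sequence was read from the supplementary oligonucleotide list.

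The 21876 genes that reached 6 reads in any library were fitted with edgeR 4.0.16 in R 4.3.3 (TMM, quasi-likelihood F-test, Benjamini-Hochberg adjustment over all of them, threshold 0.01), with 3 libraries in each group. The standard error is the log2 fold change divided by the square root of F. TPM used the deposited exon lengths. The script was tested on simulated data. Alternatives were limma 3.58.1 after voom, DESeq2 1.42.0, other scalings and filters, the replicate block, and leaving out each library.

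Replicate numbers were taken to pair libraries: after subtraction of each group's mean, log2 CPM values correlated at 0.392, 0.189 and 0.461 for same numbers and at -0.393 to 0.108 for different numbers (10908 genes). No 2 libraries of a group agreed within sampling noise (chi-square per gene of 6.03 or more).

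The members and gene lists were chosen with earlier results of these data known. The text names all members and Pla2g4e, up to 4 genes that passed with the largest changes per layer or family list, Eomes, and up to 2 per cell type list. Results of 2 other genes that the rule names are not reported here.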

Additional observations from a re-analysis of the deposited data

How the results depend on the processing

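The replicate block raised the genes called from 1419 to 3395 and the layer factors called from 2 to 4, adding Cux2 (-0.28) and Sox5 (-0.33), and changed no other call among the factors. It gave 5 family relatives, 4 other upper-layer regulators, 4 other deep-layer regulators and 8 deep-layer markers. Without a filter on low counts 2349 genes were called, with 5 relatives, 3 upper-layer and 3 deep-layer regulators and 8 deep-layer markers. At an adjusted p of 0.05 there were 2813 genes, 5 relatives, 2 upper-layer and 3 deep-layer regulators, and Cux2 (-0.28) passed. DESeq2 called 2 upper-layer and 2 deep-layer regulators. With upper-quartile scaling or library size alone, 1 relative was called, and with library size alone 1 layer factor, as Cux1 (-0.39) did not pass. Library size alone moved the median of all genes from 0.03 to 0.10 on the log2 scale and the share of calls that were lower from 61.7% to 43.3%.

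Without 1 library each in turn, the genes called ranged from 695 to 1613, the layer factors from 0 to 1, the relatives from 1 to 4, the upper-layer regulators from 1 to 3, the deep-layer regulators from 0 to 2, the upper-layer markers from 3 to 8 and the deep-layer markers from 1 to 6. The log2 fold change ranged from -0.58 to -0.40 for Cux1, 0.35 to 0.53 for Rorb, -0.0794 to 0.184 for Tbr1 and -0.0929 to 0.151 for Fezf2. It ranged from -0.301 to -0.241 for Cux2, -0.283 to -0.176 for Bcl11b and -0.391 to -0.195 for Sox5. For Tle4 the range was -0.261 to -0.083, and for Foxp2 -0.370 to -0.035. Fezf2 changed sign with limma (1.458e-05), upper-quartile scaling (0.0226), library size alone (0.0618), at least 10 reads in every library (0.00698) and filterByExpr (1.11e-04), each within its error of 0. Foxp2 and Eomes had low counts and wide intervals, and the part of the counts in that width was not tested.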
